A study of Macaca mulatta with 8 samples.

Results

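RNA of 10 genes of pericellular proteolysis was followed in primary rhesus macaque microglia: the matrix metalloproteinases MMP1, MMP2, MMP9, MMP12, MMP14 and MMP19, the tissue inhibitors TIMP1 and TIMP2, and urokinase (PLAU) with its receptor (PLAUR). They were chosen by gene symbol, and all 10 were found among the 35432 genes counted. The data came from 8 RNA sequencing libraries, 4 per condition. The cells were isolated from subcortical white matter of 4 adult animals, a male of 13 years (R07110), a male of 9 years (R12016), a female of 19 years (R02046) and a female of 6 years (R14143). They were kept for 8 days in medium with M-CSF and exposed on day 7 to 10 µg/mL of the bacterial lipopolysaccharide preparation uLPS for 16 h. From each animal, 1 culture received uLPS alone and 1 received 5 µM MRS2578, an antagonist of the nucleotide receptor P2RY6, for 1 h before uLPS. The study's methods state that the solvent of MRS2578, DMSO, served as a control wherever the antagonist was used, while the labels do not mention it for the cultures with uLPS alone. The comparison asks whether blocking P2RY6 alters the RNA response to uLPS. Each library comes from a separate culture of 1 animal, no unstimulated culture was analysed here, so the values describe levels under uLPS and not induction by it.

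The labels of R02046 were in doubt. Counts in the study's supplementary table of changed genes were proportional to the deposited counts of the same-named library for 6 libraries, whereas the 2 columns of R02046 were proportional to the library of the opposite condition. The fit of each of the 10 genes is therefore given with the deposited labels, with the 2 libraries of R02046 exchanged, and from the other 3 animals alone. Which assignment is right cannot be told apart from the counts of these genes.

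Library totals ranged from 9231109 to 32790348 counts (medians of 18485690.5 with uLPS and 16439274.5 with uLPS+MRS2578), so that 3 counts correspond to between 0.0915 and 0.325 CPM (counts relative to library size). Summed over 11 microglia markers found in the files, levels were between 4312 and 5633 CPM with uLPS and between 3862 and 4835 CPM with uLPS+MRS2578. CSF1R, CD68 and ITGAM were abundant, whereas CX3CR1 did not exceed 2.21 CPM and TMEM119 0.316 CPM in any library. The sum of 9 fibroblast and mural cell markers ranged from 142 to 1267 CPM with uLPS and from 266 to 582 CPM with uLPS+MRS2578, with RGS5 at or near 0. The other lists reached at most 151 CPM (5 astrocyte markers), 75.8 CPM (4 oligodendrocyte markers found), 332 CPM (5 endothelial markers) and 0.443 CPM (5 lymphocyte markers). A list of 7 markers of other myeloid cells reached 1589 CPM, almost all of it CD163 and MRC1, with S100A8, S100A9, S100A12 and CSF3R at or near 0. In a bulk culture, fewer cells of a type and less RNA per cell cannot be told apart.

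Matrix metalloproteinases are secreted or membrane-bound zinc proteases that are made as inactive precursors and cut collagen, elastin, gelatin and other proteins outside the cell. Tissue inhibitors of metalloproteinases bind the active enzymes, and TIMP2 also takes part, together with MMP14, in the activation of MMP2. Urokinase, held at the cell surface by its receptor, turns plasminogen into plasmin, which in turn can activate metalloproteinase precursors. In the brain, proteases of activated microglia are known for acting on the extracellular matrix and the blood-brain barrier.

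MMP9 had the highest level per length by a wide margin. Per kilobase (kb) of exon, its mean was 6257 ± 1583 CPM per kb (SD over the 8 libraries of 4 animals, both conditions together). MMP14 followed with 1222 ± 253 CPM per kb and MMP12 with 496 ± 572 CPM per kb. TIMP1 came next with 239 ± 145 CPM per kb. PLAUR (80.1 ± 27.3 CPM per kb), MMP19 (74.3 ± 15.5 CPM per kb) and MMP2 (70.1 ± 20.5 CPM per kb) formed a group whose ranges overlapped. PLAU (42.7 ± 16.9 CPM per kb) and MMP1 (39.9 ± 20.9 CPM per kb) overlapped too, and TIMP2 was lowest with 4.70 ± 2.00 CPM per kb. In all 8 libraries MMP9 was above MMP14, TIMP1 above PLAUR, and MMP1 above TIMP2. The other neighbours in this order changed places between libraries: MMP14 was above MMP12 in 7 of 8 libraries, MMP12 above TIMP1 in 4, PLAUR above MMP19 in 6, MMP19 above MMP2 in 4, MMP2 above PLAU in 5 and PLAU above MMP1 in 5. All 10 genes passed the filter on low counts, the lowest single value being 120 counts, of TIMP2. Together they took between 1.3% and 2.75% of all counts of a library.

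**Figure D1:**
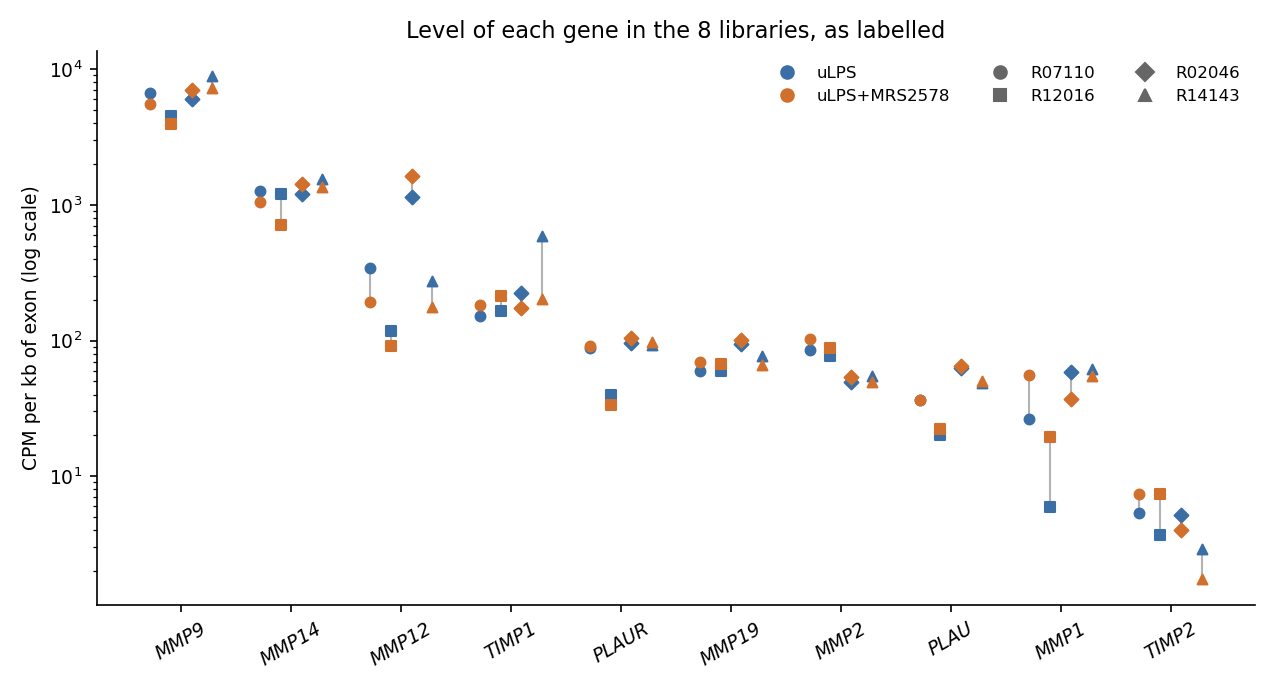
Levels of the 10 genes in CPM per kb of exon on a log axis, with 1 symbol shape per animal, blue for uLPS, orange for uLPS+MRS2578 as labelled, and a grey line joining the libraries of an animal. MMP9 lies highest in all libraries and TIMP2 lowest, and for MMP12 the libraries of R02046 lie apart from those of the other animals.

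MMP9 encodes gelatinase B, which degrades gelatin and type IV collagen (ENSMMUG00000016549, Mmul_10 chr10:81199354-81207515, plus strand). It alone took between 0.941% and 2.03% of all counts and ranked between 2 and 4 among all genes of a library. With uLPS its level was 15662 CPM in R07110, 10579 CPM in R12016, 14142 CPM in R02046 and 20763 CPM in R14143. With uLPS+MRS2578 the levels were 12988, 9208, 16282 and 16849 CPM in the same order. The conditions overlapped, and within each animal the libraries lay closer to each other than the highest and lowest animals did, whose means differed 1.9-fold. With MRS2578 the level was lower in both males and in R14143, by between 0.20 and 0.30 on the log2 scale, and higher in R02046 as labelled. The fitted log2 fold change was -0.14 ± 0.27 (SE) with the deposited labels (adjusted p = 0.952, edgeR's quasi-likelihood test with Benjamini-Hochberg adjustment, used throughout), -0.26 ± 0.23 without R02046 (adjusted p = 0.691) and -0.24 ± 0.16 with R02046 exchanged (adjusted p = 0.507, and 0.0490 in DESeq2).

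MMP14 encodes the membrane-type metalloproteinase that activates MMP2 at the cell surface (ENSMMUG00000013665, chr7:84856247-84867126, plus strand). Its levels were 4405, 4194, 4151 and 5355 CPM with uLPS in R07110, R12016, R02046 and R14143, and 3665, 2480, 4939 and 4677 CPM with uLPS+MRS2578. The library of R12016 with MRS2578 was the lowest of the 8. The fitted log2 fold change was -0.24 ± 0.21 with the deposited labels (adjusted p = 0.906), -0.41 ± 0.19 without R02046 (adjusted p = 0.423) and -0.37 ± 0.14 with R02046 exchanged (adjusted p = 0.260).

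MMP12, the macrophage elastase, varied most between animals (ENSMMUG00000004250, chr14:96138993-96153190, minus strand). With uLPS it was at 699 CPM in R07110, 239 CPM in R12016, 2315 CPM in R02046 and 561 CPM in R14143. With uLPS+MRS2578 it was at 391, 185, 3333 and 360 CPM. Both libraries of R02046 lay above all 6 others, and the animals' means spanned 13.3-fold, so the between-animal range was far wider than any difference within an animal. Within R07110, R12016 and R14143 the level was lower with MRS2578, by 0.84, 0.36 and 0.64 on the log2 scale, while R02046 as labelled was higher by 0.53. The fit gave -0.33 ± 0.23 with the deposited labels (adjusted p = 0.883), -0.62 ± 0.12 without R02046 (adjusted p = 0.163) and -0.59 ± 0.11 with R02046 exchanged (unadjusted p = 5.7e-04, adjusted p = 0.0599). It did not pass the threshold of 0.05 in any of these 3 fits. With R02046 exchanged it passed in edgeR's likelihood ratio test (adjusted p = 7.8e-04) and in DESeq2 (adjusted p = 1.4e-05), whose calls are more numerous over all genes. It then also passed in the quasi-likelihood test without R14143 (adjusted p = 0.0310), which called 918 of 12128 genes.

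MMP1, the interstitial collagenase, was the member with the largest positive difference (ENSMMUG00000002037, chr14:96064661-96073348, minus strand). Its levels with uLPS were 53.7 CPM in R07110, 12 CPM in R12016, 120 CPM in R02046 and 125 CPM in R14143. With uLPS+MRS2578 they were 114, 39.7, 75.2 and 112 CPM. As labelled, the difference was carried by the 2 males, in which MMP1 was higher with MRS2578 by 1.08 (R07110) and 1.72 (R12016) on the log2 scale. In R14143 it was 0.17 lower, and in R02046 as labelled 0.67 lower. The fit gave 0.47 ± 0.38 with the deposited labels (adjusted p = 0.901), 0.85 ± 0.34 without R02046 (adjusted p = 0.362) and 0.80 ± 0.26 with R02046 exchanged (adjusted p = 0.186). With R02046 exchanged, it passed 0.05 in the likelihood ratio test (adjusted p = 0.0471) and in DESeq2 (adjusted p = 0.0264). In the quasi-likelihood test it then passed without R14143 (log2 fold change 1.13, adjusted p = 0.0151), where 918 of 12128 genes passed. A call of MMP1 thus depended on the test and on 1 animal.

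MMP2, gelatinase A, differed little within animals (ENSMMUG00000004475, chr20:42608075-42635543, plus strand). It was at 280, 255, 164 and 182 CPM with uLPS in R07110, R12016, R02046 and R14143, and at 339, 292, 179 and 164 CPM with uLPS+MRS2578. All 4 libraries of the males (255 to 339 CPM) lay above all 4 of the females (164 to 182 CPM). PLAU (47.5 to 87.4 CPM in males, 115 to 154 CPM in females) and PLAUR (126 to 341 CPM in males, 352 to 391 CPM in females) did not overlap either, in the opposite direction. That makes 3 of 10 members, beside 8.80% of all 12131 genes tested, and with 2 animals of each sex the sex and the animal cannot be told apart. MMP19, which cleaves basement membrane proteins, was at 142, 143, 223 and 184 CPM with uLPS and at 165, 160, 241 and 157 CPM with uLPS+MRS2578 (ENSMMUG00000006295, chr11:55400689-55407231, minus strand). The fitted log2 fold changes of MMP2 (0.11 ± 0.10) and MMP19 (0.06 ± 0.11) with the deposited labels were about the size of their errors, with adjusted p of 0.906 and 0.945. Without R02046 they were 0.11 ± 0.12 and 0.05 ± 0.12 (adjusted p = 0.751 and 0.903), and with R02046 exchanged 0.05 ± 0.10 and 0.01 ± 0.10 (adjusted p = 0.852 and 0.977).

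**Figure D2:**
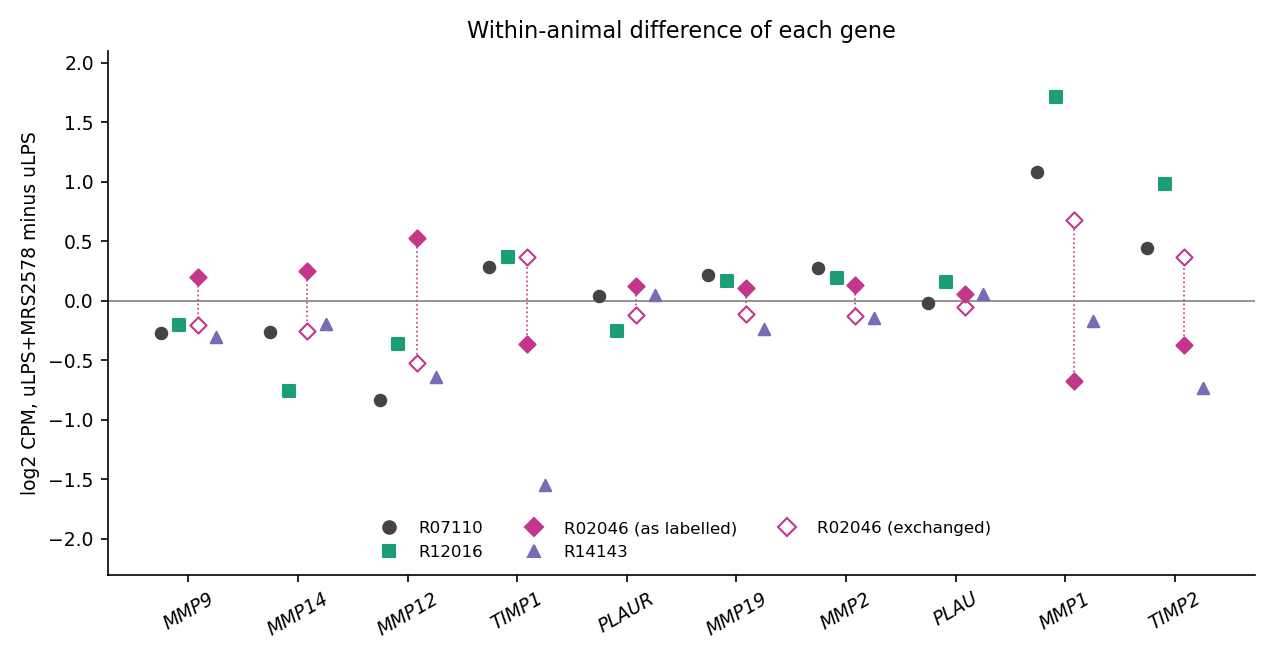
Difference of log2 CPM (uLPS+MRS2578 minus uLPS) within each animal for the 10 genes, with R02046 drawn as labelled (filled diamond) and exchanged (open diamond). MMP9, MMP14 and MMP12 lie below 0 in R07110, R12016 and R14143, whereas MMP1 spans from -0.67 to 1.72 as labelled.

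TIMP1 encodes a secreted inhibitor of most metalloproteinases (ENSMMUG00000011426, chrX:47528707-47532407, plus strand). It was at 118 CPM in R07110, 130 CPM in R12016, 176 CPM in R02046 and 464 CPM in R14143 with uLPS. With uLPS+MRS2578 the levels were 143, 168, 136 and 158 CPM. The uLPS library of R14143 stood far above the other 7, which lay between 118 and 176 CPM. TIMP1 was accordingly 1.55 lower with MRS2578 on the log2 scale in R14143, and 0.28 and 0.37 higher in R07110 and R12016. The fit gave -0.30 ± 0.31 with the deposited labels (adjusted p = 0.908), -0.28 ± 0.39 without R02046 (adjusted p = 0.799) and -0.12 ± 0.31 with R02046 exchanged (adjusted p = 0.889). Without R14143 the value turned positive, to 0.092 with the deposited labels (adjusted p = 0.989) and to 0.34 with R02046 exchanged (adjusted p = 0.0473). In the latter fit 918 of 12128 genes passed.

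The same library of R14143 held the most fibroblast and mural cell marker RNA, 1267 CPM summed over the 9 markers, against 479 CPM in its partner with MRS2578. In R07110 the sum was 205 CPM with uLPS and 292 CPM with uLPS+MRS2578, and in R12016 it was 142 and 266 CPM. In R02046 it was 426 and 582 CPM. The within-animal difference of TIMP1 thus had the sign of the marker sum's difference in R07110, R12016 and R14143. In R02046 it did not under either assignment, since an exchange turns both signs. The same held for MMP1 and TIMP2. The differences of MMP2 and MMP19 had the sign of the marker sum's difference in all 4 animals, and those of the other 5 members in 2 of 4. How many of all genes tested share such signs was not counted, so these counts do not set the members apart. Of the markers, 8 were tested, with 4 positive and 4 negative fitted log2 fold changes with the deposited labels. With R02046 exchanged, 3 were positive and 5 negative, so the sum does not give the direction of each marker. The part of these markers in the values of the members was not tested.

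**Figure D3:**
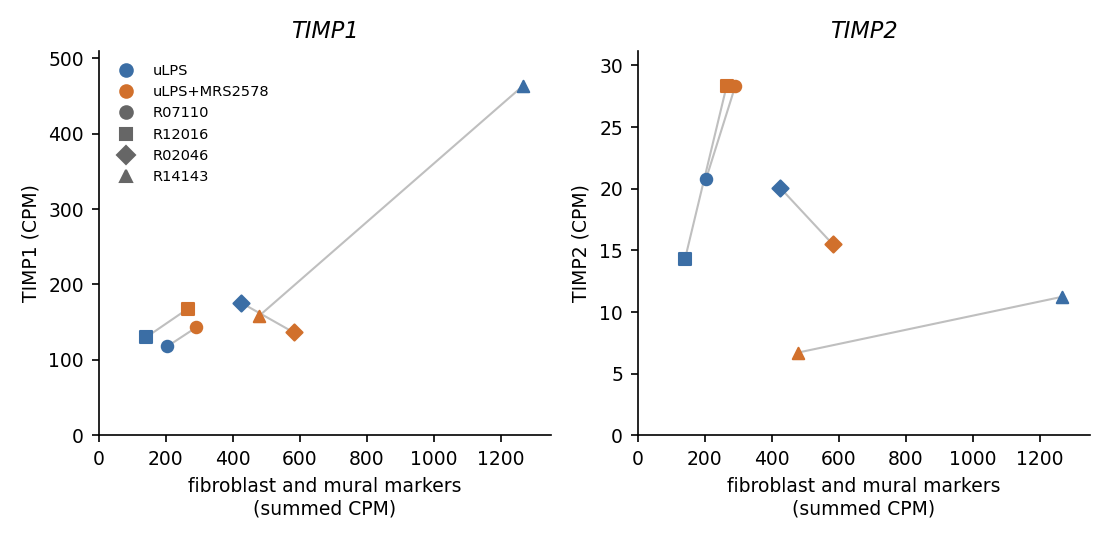
TIMP1 and TIMP2 in CPM against the summed CPM of 9 fibroblast and mural cell markers in the 8 libraries, with grey lines joining the libraries of an animal. The uLPS library of R14143 lies at the far right of both plots with 1267 CPM of markers and has the highest TIMP1 (464 CPM), while its TIMP2 (11.2 CPM) is among the lowest.

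TIMP2 was the least abundant member (ENSMMUG00000005355, chr16:75177672-75249178, minus strand). It was at 20.8, 14.3, 20.1 and 11.2 CPM with uLPS in R07110, R12016, R02046 and R14143, and at 28.3, 28.3, 15.5 and 6.71 CPM with uLPS+MRS2578. It was higher with MRS2578 in both males and lower in both females as labelled, with a fitted log2 fold change of 0.10 ± 0.28 (adjusted p = 0.969). The value was 0.28 ± 0.31 without R02046 (adjusted p = 0.763) and 0.31 ± 0.24 with R02046 exchanged (adjusted p = 0.580). TIMP2 overlaps CEP295NL on the same strand, so strand cannot assign reads in bases they share. The study's methods state that the counting kept unique reads within exons, but not how it treated reads in exons of more than 1 gene. Any effect on the level of TIMP2 was not tested. TIMP1 lies within SYN1 on the opposite strand, and since the strand setting of the counting is not given either, reads in any shared exon bases have an uncertain origin.

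PLAU and PLAUR differed little within animals. PLAU was at 87.4 and 86.0 CPM in R07110, 47.5 and 53.1 CPM in R12016, 149 and 154 CPM in R02046, and 115 and 120 CPM in R14143, with uLPS first in each pair (ENSMMUG00000009906, chr9:63884895-63891323, minus strand). Within animals these values differed by at most 0.16 on the log2 scale, while the animals' means spanned 3.01-fold. The difference in R12016 was 0.30 with total count scaling. PLAUR was at 332 and 341, 151 and 126, 359 and 391, and 352 and 365 CPM in the same order (ENSMMUG00000004616, chr19:43711456-43734709, minus strand), with a largest within-animal difference of 0.25, in R12016. The fits gave 0.06 ± 0.09 for PLAU (adjusted p = 0.934) and -0.01 ± 0.10 for PLAUR (adjusted p = 0.993) with the deposited labels, 0.06 ± 0.10 and -0.05 ± 0.11 without R02046 (adjusted p = 0.822 and 0.872), and 0.03 ± 0.08 and -0.07 ± 0.09 with R02046 exchanged (adjusted p = 0.876 and 0.757). The receptor was higher than its ligand per length in all 8 libraries, by between 1.5-fold and 2.5-fold.

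In sum over the 10 genes, none passed an adjusted p of 0.05 with the deposited labels, beside 0% (0 of 12131) of all genes tested, of which 624 had an unadjusted p under 0.05. None passed with R02046 exchanged, beside 0.618% (75 genes, 12 higher and 63 lower with MRS2578), and none without R02046, beside 0% (0 of 12295). In DESeq2 with the deposited labels 1 gene passed and in the likelihood ratio test 5, none of them a member. The unadjusted p was under 0.05 for 0 members with the deposited labels. With R02046 exchanged it was under 0.05 for 3 (MMP1, MMP12 and MMP14), beside 1995 of all 12131 genes tested. Without R02046 it was under 0.05 for 2 (MMP1 and MMP12), beside 1670 of 12295 genes. In the likelihood ratio test with R02046 exchanged, 2 members passed (MMP1 higher, MMP12 lower), beside 5.08% of all genes. In DESeq2 with R02046 exchanged, 3 members passed (MMP1 higher, MMP9 and MMP12 lower), beside 4.81%. In the quasi-likelihood test with R02046 exchanged and R14143 left out, MMP1 and TIMP1 passed as higher and MMP12 as lower, beside 918 of 12128 genes. With MRS2578, 3 of the 10 (MMP9, MMP12 and MMP14) were lower in all of R07110, R12016 and R14143, beside 19.8% of all genes, and 0 of the 10 were higher in all 3, beside 17.0%. The members' median log2 fold change was 0.026 with the deposited labels and -0.031 with R02046 exchanged, against -0.0097 and 0.0012 over all genes tested.

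**Figure D4:**
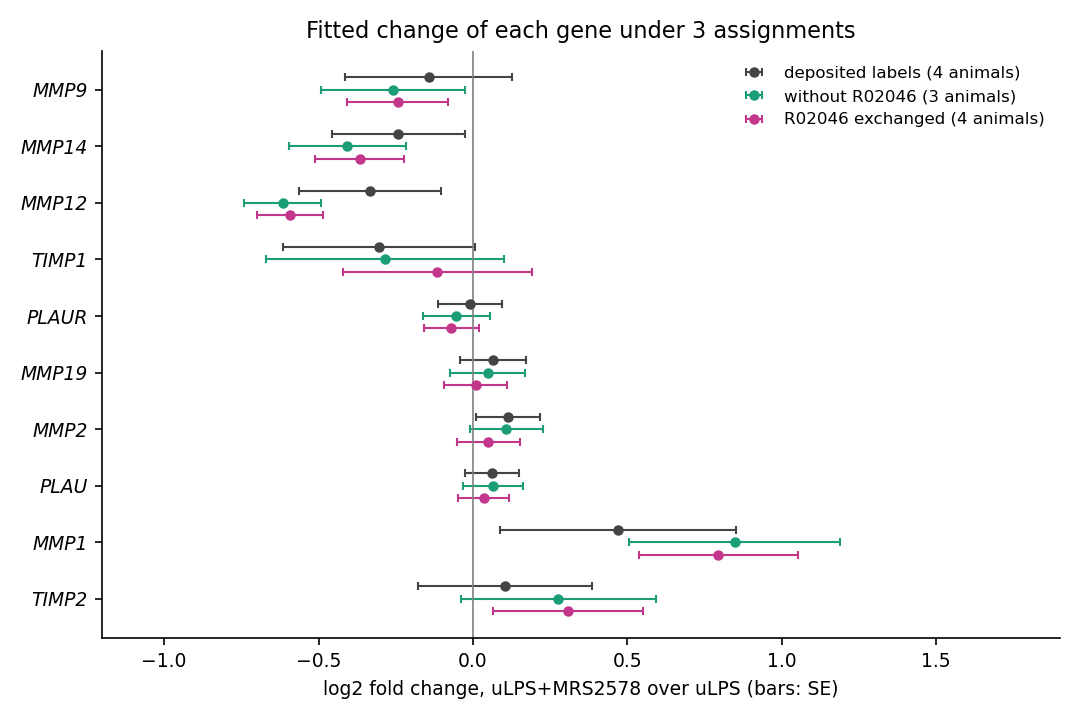
Fitted log2 fold change (uLPS+MRS2578 over uLPS) of the 10 genes with its standard error as bars, for the deposited labels, without R02046 and with R02046 exchanged. MMP12 and MMP1 lie farthest from 0 and move outward when R02046 is left out or exchanged, while PLAU, PLAUR, MMP2 and MMP19 stay within 0.12 of 0.

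MMP1 and MMP12 lie in a cluster of 9 metalloproteinase genes on the minus strand of chromosome 14, which spans 437 kb. Only 4 of the 9 had enough counts to be tested (MMP10, MMP1, MMP3 and MMP12), whereas MMP7 and MMP13 did not exceed 0.610 CPM and MMP8, MMP20 and MMP27 were at 0 counts in all 8 libraries. MMP10, stromelysin-2, is 9.09 kb from MMP1, and its levels were 21.7, 9.19, 61.7 and 41.5 CPM with uLPS and 129, 36.0, 27.5 and 43.5 CPM with uLPS+MRS2578 in R07110, R12016, R02046 and R14143. Like MMP1, it was higher with MRS2578 in both males, by 2.57 and 1.96 on the log2 scale, lower in R02046 as labelled and nearly level in R14143 (0.07). MMP3, stromelysin-1, is 18.7 kb from MMP12, and was at 314, 97.5, 719 and 455 CPM with uLPS and at 137, 54.8, 761 and 341 CPM with uLPS+MRS2578. Like MMP12, with MRS2578 its level was lower in both males and in R14143. In both males the 4 genes thus differed in opposite directions within 1 stretch of the chromosome. For MMP10 the fits gave 0.87 ± 0.62 with the deposited labels (adjusted p = 0.892), 1.54 ± 0.48 without R02046 (adjusted p = 0.276) and 1.44 ± 0.36 with R02046 exchanged (adjusted p = 0.117). For MMP3 they gave -0.59 ± 0.20 (adjusted p = 0.878), -0.81 ± 0.16 (adjusted p = 0.160) and -0.63 ± 0.17 (adjusted p = 0.134) in the same order. In the likelihood ratio test with R02046 exchanged both passed (adjusted p = 0.00417 for MMP10 and 0.0246 for MMP3).

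**Figure D5:**
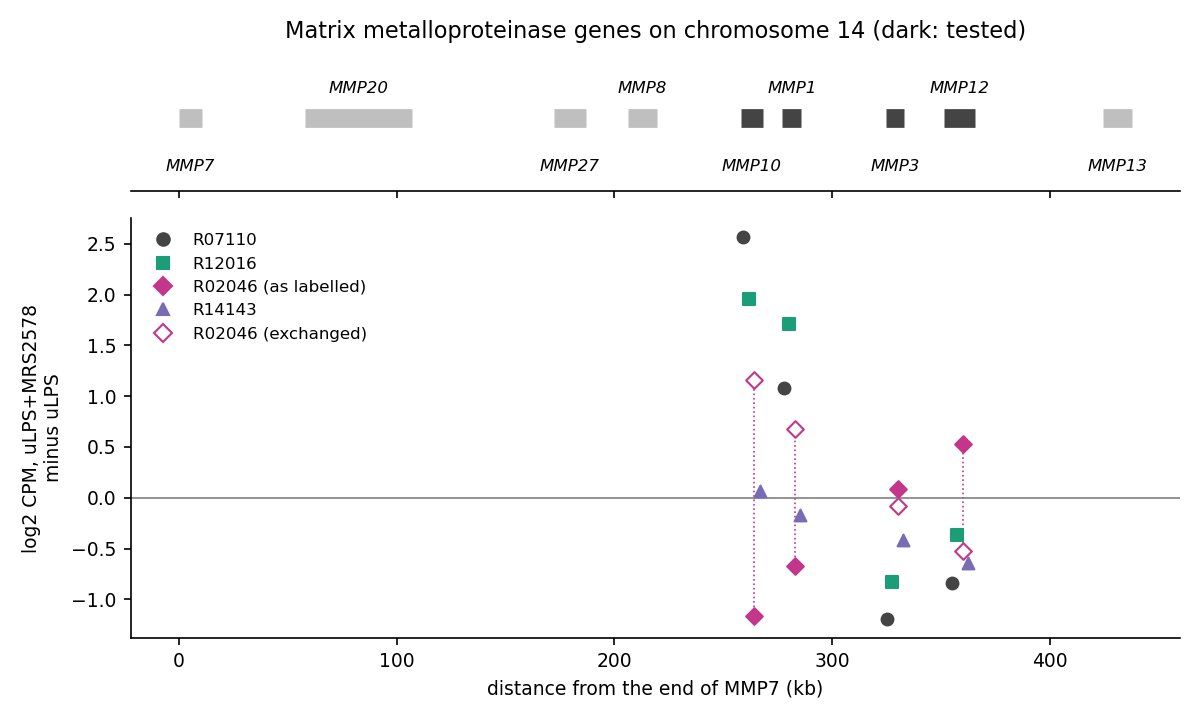
The upper panel maps the 9 metalloproteinase genes of chromosome 14 by distance in kb from the end of MMP7, dark where tested, and the lower panel gives the within-animal difference of log2 CPM (uLPS+MRS2578 minus uLPS) of the 4 tested genes. In R07110 and R12016 MMP10 and MMP1 lie above 0 and MMP3 and MMP12 below 0.

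Among the other metalloproteinases, 16 of 17 listed symbols were found and 5 were tested. None passed in either quasi-likelihood fit. With R02046 exchanged 2 of the 5 had positive and 3 negative log2 fold changes (median -0.41, against 0.0012 over all genes). In the likelihood ratio test 1 then passed as higher (MMP10) and 2 as lower, beside 5.08% of all genes. The 2 lower ones were MMP3 and the low-level MMP25 (0.503 to 6.73 CPM, adjusted p = 0.0203). MMP15, a membrane-type enzyme and the third most abundant of the list, ranged from 6.45 to 23.5 CPM (-0.13 ± 0.24 with the deposited labels and -0.41 ± 0.18 with R02046 exchanged, adjusted p = 0.949 and 0.325). Of the other inhibitors, TIMP3 and RECK were tested and none passed. RECK, a membrane-anchored inhibitor of metalloproteinases, was at 30.1, 24.4, 19 and 21.5 CPM with uLPS and at 33.1, 33.3, 22.6 and 28.1 CPM with uLPS+MRS2578, higher with MRS2578 in all 4 animals as labelled (log2 fold change 0.30 ± 0.11, unadjusted p = 0.0289, adjusted p = 0.878). With R02046 exchanged its value was 0.19 ± 0.14 (adjusted p = 0.533), and R02046 was then lower with MRS2578. Of the 2 inhibitors tested here, 1 was higher in all 4 animals as labelled, beside 780 of all 12131 genes tested. TIMP3 ranged from 0.128 to 1.73 CPM, and TIMP4, which was not tested, did not exceed 0.849 CPM.

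Of 11 genes of plasminogen activation 10 were tested and none passed, with 6 positive and 4 negative log2 fold changes with the deposited labels (median 0.12) and 5 and 5 with R02046 exchanged (median 0.024). Plasminogen itself (PLG) had 0 counts. ENO1 (1834 to 2214 CPM) and ANXA2 (1415 to 2011 CPM), which can bind plasminogen at the cell surface, differed within animals by at most 0.14 on the log2 scale. LRP1, the endocytic receptor that clears protease-inhibitor complexes, was at 967, 1022, 947 and 1249 CPM with uLPS and at 1179, 1381, 1191 and 1508 CPM with uLPS+MRS2578, higher with MRS2578 in all 4 animals as labelled (0.33 ± 0.12, adjusted p = 0.878). With R02046 exchanged its value was 0.17 ± 0.14 (adjusted p = 0.60), and R02046 was then lower. Of the 10 genes tested, 2 were higher in all 4 animals as labelled, beside 780 of all 12131 genes tested. In the likelihood ratio test with R02046 exchanged 1 of the 10 passed as higher and 1 as lower, beside 5.08% of all genes. These were PLAT, the tissue plasminogen activator (0.447 to 5.82 CPM, adjusted p = 0.0481), and PLGRKT, a plasminogen receptor (15.2 to 41.3 CPM, adjusted p = 0.0196). Neither passed in the quasi-likelihood test with R02046 exchanged, nor as labelled (adjusted p = 0.878 for both). Like MMP25 they were named after their values were seen.

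Of 3 genes for activation or docking of metalloproteinases, FURIN and CD44 were tested. CD44, the hyaluronan receptor that can hold MMP9 at the cell surface, was at 4777, 7810, 3420 and 5650 CPM with uLPS and at 3504, 4169, 5540 and 4293 CPM with uLPS+MRS2578. It was lower after the antagonist in both males and in R14143 and higher by 0.70 on the log2 scale in R02046 as labelled. The fit gave -0.27 ± 0.29 with the deposited labels (adjusted p = 0.916), -0.58 ± 0.19 without R02046 (adjusted p = 0.296) and, with R02046 exchanged, -0.61 ± 0.14 (adjusted p = 0.103 in the quasi-likelihood test and 0.00139 in the likelihood ratio test). FURIN, the protease that activates MMP14, was also lower in these 3 animals and higher by 0.36 in R02046 as labelled. Its fit gave -0.12 ± 0.15 with the deposited labels (adjusted p = 0.929), -0.28 ± 0.12 without R02046 (adjusted p = 0.385) and -0.30 ± 0.10 with R02046 exchanged (adjusted p = 0.186).

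The genes closest to each member over the 8 libraries, by Pearson's r of log2 CPM, are given as a description, since libraries of an animal are not independent. They were AKR1B10 (r = 0.978) and TNS2 (0.976) for MMP1, HGFAC (0.992) and ASF1B (0.985) for MMP9, ANPEP (0.993) and IDH3B (0.990) for MMP12, and DHX36 (0.984) and SLC66A1 (0.977) for MMP14. For MMP2 they were the Y-linked DDX3Y (0.965) and KIAA0513 (0.963), and for MMP19 HMOX2 (0.969) and REXO2 (0.967). For TIMP1 they were CYP1B1 (0.987) and SYNE2 (0.971), and for TIMP2 AIG1 (0.973) and RNF166 (0.959). EMILIN1 and FGGY (both 0.990) were closest to PLAU, and SLC38A6 (0.986) and APEH (0.985) to PLAUR. Between members r was highest for PLAU and PLAUR (0.903) and for MMP9 and MMP14 (0.866), and lowest for MMP2 and PLAU (-0.739).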

How the data were processed

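Poly(A) RNA of 8 cultures was sequenced with a strand-specific kit. The authors aligned the reads to Mmul_10 and deposited whole-number counts per Ensembl gene, not normalized. The study's methods name fastp 0.20, STAR 2.5.4, SAMtools 1.10 and HTSeq 0.11.0, whereas the submitters' processing notes name Trimmomatic 0.30, TopHat2 2.0.14, SAMtools 1.3 and HTSeq 0.6.1p1. Which of these made the files, the annotation release and the strand setting are not given in the sources used here. The labels give 10 ng/mL M-CSF, whereas the study's methods state a higher concentration for the microglia. No sequencing batch is given in the labels.

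Groups and animals came from the labels, and sex and age from the study's methods. The counts were fitted with edgeR 4.0.16 (R 4.3.3) by the quasi-likelihood test with its current estimation, TMM scaling, filterByExpr on condition (minimum count 10), the animal as a block and Benjamini-Hochberg adjustment over all genes tested, with a threshold of 0.05. The SE is the size of the log2 fold change over the square root of F. Libraries of the same animal deviated together from their condition means (r = 0.602, 0.552, 0.458 and 0.562 over genes for R07110, R12016, R02046 and R14143), so the replicate block pairs real samples. CPM are TMM-scaled, and log2 differences within animals used a prior count of 2. Lengths are unions of exons in RefSeq's Mmul_10 annotation, which is not the annotation used for counting. No pair of libraries was a duplicate (lowest chi-square per degree of freedom 19.6). The fit was tested on simulated data with known changes before use. The simulation gave every animal the same change and held no doubtful labels, so it cannot tell how the fit performs on uneven changes. Alternatives were DESeq2 1.42.0, a likelihood ratio test, other scaling and filters, no block and leaving out each animal. The earlier quasi-likelihood estimation was added after seeing the data.

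The members and all gene lists were chosen with earlier results of these data known. Named genes were the members, any listed pathway gene with an adjusted p under 0.05, the 3 most abundant genes of each pathway list, P2RY6, and the 2 genes closest to each member. The list of plasminogen activation was counted without 1 gene, which is not reported here. The ± values are SDs over libraries for levels and SEs of the fit for log2 fold changes.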

Additional observations from a re-analysis of the deposited data

Results flagged for a closer look

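Of 30 sets of 4 values tested for a single distant value (level with uLPS, level with uLPS+MRS2578 and within-animal difference of each of the 10 genes), 4 held one by Dixon's test. Chance alone gives about 1 in 20. With uLPS+MRS2578, MMP12 in R02046 was at 3333 CPM against 185 to 391 CPM in the other 3 animals. MMP19 in the same library was at 241 CPM against 157 to 165 CPM. With uLPS, TIMP1 in R14143 was at 464 CPM against 118 to 176 CPM, and this library also had the highest sum of fibroblast and mural cell markers (1267 CPM). With uLPS, PLAUR in R12016 was at 151 CPM against 332 to 359 CPM. If the libraries of R02046 are exchanged, the MMP12 and MMP19 values of that animal belong to uLPS alone.

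In 5 cases both males differed one way and both females the other way. The share of all genes tested that split in this way was not counted, so these cases do not set the members apart. With the deposited labels the mean within-animal log2 difference was 1.40 in males and -0.42 in females for MMP1 (1.82 apart), 0.32 and -0.96 for TIMP1 (1.28 apart), and 0.71 and -0.55 for TIMP2 (1.26 apart). With R02046 exchanged none of these 3 split by sex, and MMP2 (0.23 and -0.14, 0.37 apart) and MMP19 (0.19 and -0.17, 0.36 apart) did. The difference between the sexes was not tested, and with 2 animals of each it cannot be told apart from differences between animals, which also differ in age.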

How the results depend on the processing

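With the deposited labels, 104 of 110 member values kept their direction and stayed on the same side of the threshold over 11 alternatives, and with R02046 exchanged 87 of 100 did over 10. The number of genes called moved more. With the deposited labels it was 0, and 1 in DESeq2's Wald test and 5 in the likelihood ratio test. With R02046 exchanged it was 75, and 583 in DESeq2's Wald test, 616 in the likelihood ratio test, 39 with the earlier quasi-likelihood estimation (added after seeing the data), 32 with at least 10 counts in every library, and between 0 (without R07110) and 918 (without R14143) when an animal was left out, with 5 without R12016. Without the replicate block (unpaired fit) it was 0, and the sign reversed for MMP12 (0.16) and PLAUR (0.035) with the deposited labels and for MMP19 (-0.011) with R02046 exchanged. MMP19 also reversed without a filter on low counts (-0.0057). Leaving out 1 animal gave ranges across 0, with the deposited labels from -0.17 to 0.36 for TIMP2, -0.054 to 0.075 for PLAUR and -0.54 to 0.092 for TIMP1, and with R02046 exchanged from -0.029 to 0.11 for MMP2, -0.062 to 0.088 for MMP19 and -0.28 to 0.34 for TIMP1. MMP9 passed the threshold in DESeq2 with R02046 exchanged (-0.25, adjusted p = 0.0490), and MMP12 in the quasi-likelihood test without R14143 (-0.58, adjusted p = 0.0310). The cause of these changes was not tested. A prior count of 0.25 changed no within-animal difference by more than 0.0080, and total count scaling by up to 0.14, with 1 change of sign in 40 (PLAU in R07110, from -0.022 to 0.037). Each member had 120 counts or more in every library, and the number of animals was 4.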

Other observations

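P2RY6, the target of the antagonist, was at 69.1, 52.6, 68.0 and 98.5 CPM with uLPS in R07110, R12016, R02046 and R14143, and at 52.0, 49.5, 79.9 and 110 CPM with uLPS+MRS2578 (log2 fold change -0.03 ± 0.13, adjusted p = 0.986 with the deposited labels, and -0.14 ± 0.11, adjusted p = 0.570 with R02046 exchanged, edgeR's quasi-likelihood test). The antagonist acts on the receptor protein, so its RNA is no check of the labels.

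Of 13 ADAM and ADAMTS proteases, related enzymes that shed membrane proteins or cut matrix proteoglycans, 12 were tested and none passed in either quasi-likelihood fit or in the likelihood ratio test with R02046 exchanged. The most abundant were ADAM9 (500 to 856 CPM), ADAM17 (293 to 427 CPM), which releases TNF from the cell surface, and ADAM10 (202 to 250 CPM). Their fitted log2 fold changes with the deposited labels were 0.14 ± 0.11, 0.02 ± 0.11 and 0.06 ± 0.10, and with R02046 exchanged 0.02 ± 0.11, -0.14 ± 0.09 and -0.02 ± 0.09. ADAMDEC1, named after its values were seen, was at 70.7 and 48.6 CPM in R12016 and at 14 and 20.9 CPM in R02046, but at or under 2.26 CPM in R07110 and R14143, a 78.2-fold span of the animals' means.

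Per kb of exon, MMP9 was between 15.1 and 44.7 times as high as TIMP1. The lowest ratio was that of the uLPS library of R14143, whose partner with MRS2578 had a ratio of 35.8. In R07110 and R12016 the ratio was lower with MRS2578 (44.7 and 30.5, 27.3 and 18.4), and in R02046 as labelled higher (27.1 and 40.1). MMP14 was between 97.6 and 777 times as high as TIMP2. Any effect on this ratio of the overlap of TIMP2 with CEP295NL, or of the annotation used for lengths, was not tested.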
